A study of Mus musculus with 6 samples.

Results

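The DOCK genes encode dedicator of cytokinesis proteins, and 8 of them are described here, Dock9, Dock10, Dock11, Dock6, Dock8, Dock1, Dock5 and Dock4. They were taken by symbol from the 55802 gene symbols counted in mouse liver. Each of the 8 symbols has its own row in the count files, and all 8 passed the filter on low counts, which left 17662 genes. The set was chosen because Dock9 stood apart between the diets in an earlier look at the same libraries. Every difference between diets for these 8 genes is therefore given as a description. Test outcomes for them appear only as counts beside all genes, and nothing is read from those counts. The samples are livers of C57BL/6 male mice reared for 71 weeks. The labels put 3 libraries on chow containing PS-MP, polystyrene microplastic particles, and 3 libraries on normal chow, called control below; a separate protocol label names PS-MP for all 6, and the groups follow the titles and the treatment label. All groups share strain, sex, tissue and rearing time, and no particle size or dose is given in the sources used here. The labels do not say that replicates are separate animals, so any spread given here is the spread between these libraries and may be technical.

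DOCK proteins are exchange factors. They load Rac and Cdc42, small GTPases that organise actin, with GTP through a catalytic domain called DHR2, while a DHR1 domain binds membrane phosphoinositides. By sequence the family falls into subfamilies. Dock1, Dock2 and Dock5 (A) and Dock3 and Dock4 (B) act on Rac together with ELMO proteins, Dock6 and Dock8 (C) act on Rac or Cdc42, and Dock9, Dock10 and Dock11 (D, also called zizimins) act mainly on Cdc42. In liver the Rac and Cdc42 pathways serve cell polarity, uptake of dead cells and the movement of immune cells.

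Dock9 has several start sites, and a count per gene sums the transcripts from all of them. The 3 start windows that RefSeq lists for Dock9 are shown because the files do not say from which of them the reads of a library came. Each window holds 250 bases before and 50 after the start, on the minus strand of chromosome 14 in the build GRCm38.p6, which is earlier than the build named for these counts. Capitals mark the GC box, GGGCGG or its reverse complement CCGCCC, on either strand.
Dock9 start 1, chr14:121797685-121797984: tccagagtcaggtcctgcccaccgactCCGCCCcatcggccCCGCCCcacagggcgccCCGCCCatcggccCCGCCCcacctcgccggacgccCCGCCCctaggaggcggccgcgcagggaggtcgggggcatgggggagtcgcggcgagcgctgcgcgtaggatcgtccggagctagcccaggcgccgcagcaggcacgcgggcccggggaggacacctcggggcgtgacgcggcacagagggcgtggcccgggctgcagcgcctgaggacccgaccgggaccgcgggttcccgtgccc
Dock9 start 2, chr14:121738880-121739179: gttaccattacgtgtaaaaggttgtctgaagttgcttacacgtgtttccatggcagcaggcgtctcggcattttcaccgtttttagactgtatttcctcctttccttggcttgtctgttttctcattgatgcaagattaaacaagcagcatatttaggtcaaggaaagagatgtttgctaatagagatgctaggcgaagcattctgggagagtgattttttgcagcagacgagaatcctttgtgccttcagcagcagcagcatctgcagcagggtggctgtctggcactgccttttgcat
Dock9 start 3, chr14:121698368-121698667: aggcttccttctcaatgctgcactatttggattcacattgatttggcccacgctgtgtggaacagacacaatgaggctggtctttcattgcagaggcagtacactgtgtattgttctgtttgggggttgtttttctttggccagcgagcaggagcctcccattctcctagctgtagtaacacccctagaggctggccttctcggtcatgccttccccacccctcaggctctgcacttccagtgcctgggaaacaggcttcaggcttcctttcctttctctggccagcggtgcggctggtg
The most upstream window has 79% G and C, 41 CG pairs and 5 GC boxes. Start 2 has 45.3% G and C and 7 CG pairs, start 3 has 54% and 5, and neither holds a GC box. Of the 32851 RefSeq windows of this length, 35.7% hold at least 1 GC box, and the median number of CG pairs is 7. The motifs TATAAA and CCAAT, searched on both strands, are in none of these 3 windows, against 13.6% and 37.4% of all windows. A start window was also listed for Dock1, Dock4, Dock6, Dock8, Dock10 and Dock11, and the most upstream window of each holds 2 to 5 GC boxes. The window of Dock3 holds 3 GC boxes and that of Dock2 holds 0. These matches describe letters only.

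Libraries held 79081889 to 79691824 counts in PS-MP and 68357478 to 112566641 in control. Levels are CPM, read counts put on a shared scale of library size by TMM. The 6 hepatocyte markers were all present, with a summed level of 67970 to 85880 CPM in PS-MP and 61590 to 79540 CPM in control. Reads of 18S ribosomal RNA took 0.387% to 1.14% of the counts in PS-MP and 1.15% to 11.2% in control, so they separate the diets as well, by a narrow margin. A tissue piece holds many cell types, and a lower level can be fewer cells of a type or less RNA per cell, which cannot be told apart.

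Dock9, an exchange factor for Cdc42, was low in control and stood far above it in every PS-MP library. Its counts were 366, 806 and 792 in PS-MP, against 36, 15 and 28 in control. In CPM these are 4.44, 9.13 and 9.25 in PS-MP and 0.496, 0.246 and 0.265 in control. The lowest PS-MP library was thus above the highest control library, and PS-MP replicate 1 was the lowest of its diet. The means were 7.61 ± 2.74 CPM in PS-MP and 0.336 ± 0.139 CPM in control (SD, n = 3 each), a log2 fold change of 4.50 (SE 0.45) or 22.6-fold. With any single library left out it stayed between 4.32 and 4.88.

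**Figure D1:**
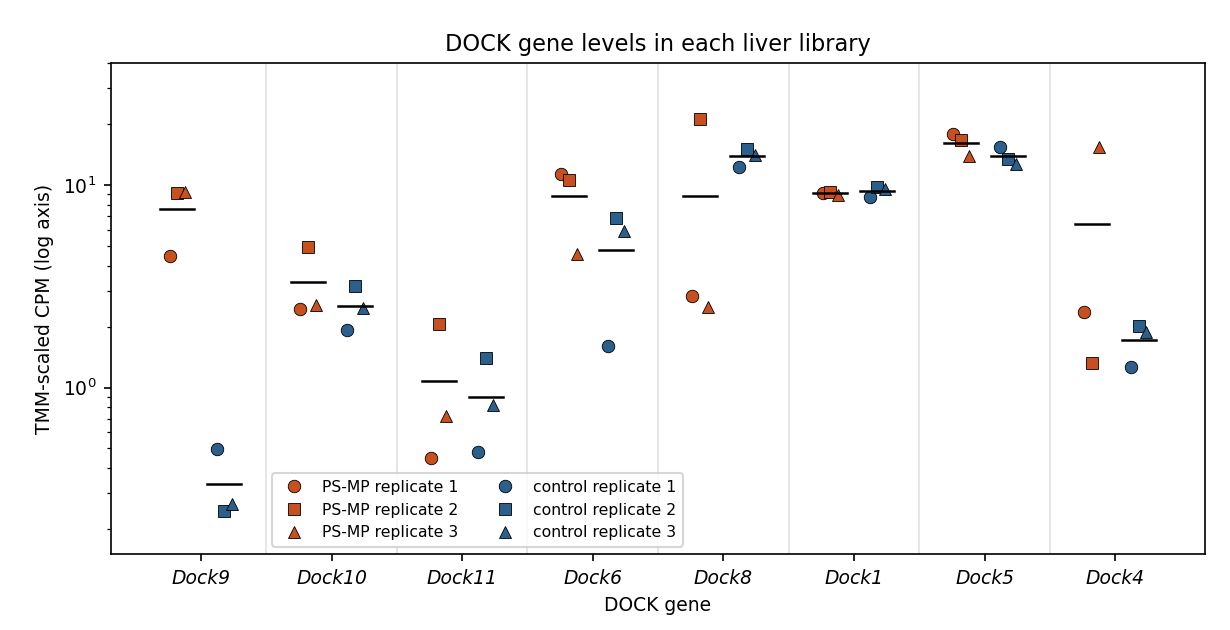
TMM-scaled CPM on a log axis of the 8 DOCK genes in each library, PS-MP in orange left of control in blue, with a symbol for each replicate and a bar at the mean of 3 libraries. Dock9 lies at 4.44 to 9.25 CPM in PS-MP and 0.246 to 0.496 CPM in control, while the libraries of the diets overlap for the other 7 genes.

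Other measures separated the same libraries. Neutrophil markers, 4 of 5 with counts and Ly6g at 0, summed to 1.38 to 5.60 CPM in PS-MP and 0.681 to 0.881 CPM in control. Kupffer cell markers, 7 of 7 with counts, summed to 153 to 168 CPM in PS-MP and 109 to 143 CPM in control. Red cell markers, 5 of 5, summed to 571 to 848 CPM in PS-MP and 263 to 504 CPM in control. Taken singly, 3 of the 7 Kupffer cell genes and 2 of the 5 red cell genes, Hbb-bs and Hbb-bt, were higher in every PS-MP library. The other Kupffer cell and red cell genes overlapped, and the red cell gene Alas2 had a log2 fold change of -0.07. Of the neutrophil genes, the 3 that passed the filter, S100a8, S100a9 and Retnlg, were higher in every PS-MP library. Ngp, which did not pass, had 0, 79 and 0 counts in PS-MP, against 0, 9 and 3 in control. Every PS-MP library was higher for 6.24% of all genes tested. Sinusoidal endothelial markers, 9 of 9, overlapped, at 119 to 169 CPM in PS-MP and 111 to 128 CPM in control. Stellate cell markers, 6 of 6, overlapped too, at 250 to 340 CPM in PS-MP and 311 to 324 CPM in control. So did cholangiocyte markers, 6 of 6, at 11.3 to 21.4 CPM in PS-MP and 12 to 26.8 CPM in control, and mesothelium markers, 4 of 4, at 4.64 to 5.60 CPM in PS-MP and 1.93 to 6.08 CPM in control. Adipocyte markers, 5 of 5, lay at 5.48 to 22.3 CPM in PS-MP and 2.37 to 12.3 CPM in control, and Cfd made up most of that sum. Retn, of the same list, had 0 counts in every PS-MP library, against 18, 11 and 35 in control. Adipoq, Plin1 and Lep were high in PS-MP replicate 3 only, at 20, 41 and 10 counts. All of them had 0 counts in PS-MP replicates 1 and 2. In control they had 0 as well, apart from 2 counts of Adipoq in control replicate 3. The part of these cell types and of ribosomal RNA in the Dock9 difference was not tested.

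Of the genes beside Dock9, only Ubac2 had counts, and Ubac2 did not share the Dock9 pattern. Ubac2, on the other strand, had 2282, 2358 and 2391 counts in PS-MP, against 2114, 1439 and 2933 in control, with means of 27.5 CPM in PS-MP and 26.8 CPM in control (log2 fold change 0.03, SE 0.13). Slc15a1, a peptide transporter gene, had 0 counts in all 6 libraries, which allows up to 3 counts a library. In the GENCODE annotation of the earlier build no gene overlaps Dock9, which has 10 transcripts there and 13.2 kb of exon.

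Dock10 and Dock11, the other Cdc42 exchange factors of subfamily D, had no such difference. Dock10, known from lymphocytes, had 2.43, 4.93 and 2.57 CPM in PS-MP, against 1.91, 3.17 and 2.46 CPM in control. Dock11, which acts in B cells and was the lowest of the 8 genes per exon length over the 6 libraries, had 0.449, 2.05 and 0.724 CPM in PS-MP, against 0.482, 1.40 and 0.822 CPM in control. For both genes the libraries overlapped, and replicate 2 was the highest of each diet. The log2 fold change was 0.40 (SE 0.36) for Dock10 and 0.26 (SE 0.65) for Dock11, and without PS-MP replicate 2 these were -0.01 and -0.61. Without control replicate 1 that of Dock11 was -0.04. The sum of the lymphocyte markers, 8 of 8 with counts, was also highest in replicate 2 of each diet. It was 10.2, 29.3 and 15 CPM in PS-MP and 13.4, 27.6 and 10.8 CPM in control. Ptprc was the largest part of it in replicate 2, at 12.6 CPM in PS-MP and 12.3 CPM in control. Cd3e was instead highest in control replicate 3, at 1.17 CPM, against 1.08 CPM in control replicate 2. The part of these markers in the Dock10 and Dock11 levels was not tested.

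Within subfamily D, Dock9 held the largest share of the counts in every PS-MP library and Dock10 in every control library, a measure that no scaling between libraries touches. Dock9 held 60.7%, 56.7% and 73.7% of the summed Dock9, Dock10 and Dock11 counts in PS-MP, and 17.1%, 5.12% and 7.47% in control. The Wilson 95% intervals, which cover counting error only, ran from 54.1% at the lowest to 76.3% at the highest in PS-MP and from 3.13% to 22.8% in control. These shares are not corrected for gene length and rest on the same Dock9 counts.

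**Figure D2:**
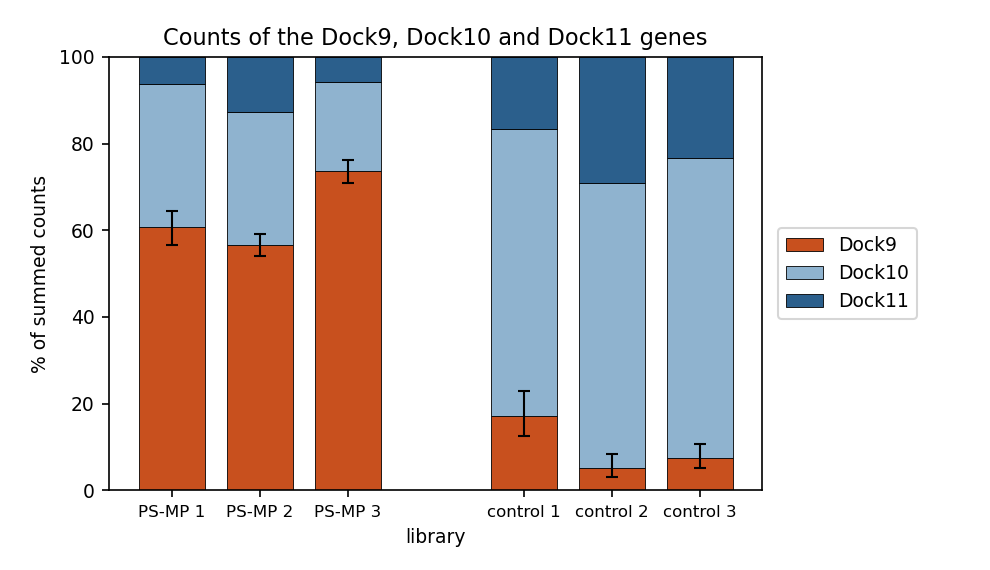
Share in percent of the summed counts of Dock9, Dock10 and Dock11 held by each gene, in each library, PS-MP left of control; error bars are the Wilson 95% interval of the Dock9 share. Dock9 holds 56.7% to 73.7% in PS-MP and 5.12% to 17.1% in control.

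Dock6 and Dock8, of subfamily C, were uneven inside a diet. Dock6, which acts on Rac and Cdc42, had 933, 931 and 391 counts in PS-MP, against 116, 416 and 628 in control. In CPM these are 11.3, 10.5 and 4.57 in PS-MP and 1.60, 6.83 and 5.94 in control. PS-MP replicates 1 and 2 stood above every control library, PS-MP replicate 3 fell among them, and control replicate 1 was the lowest of all. The log2 fold change was 0.88 (SE 0.58), or 0.47 without control replicate 1. Angptl8, a hormone gene of lipid metabolism that sits inside Dock6 on the opposite strand and shares no exon base with it, had 1827, 2109 and 1489 counts in PS-MP, against 1225, 1320 and 2172 in control. Sinusoidal endothelial markers summed to 131, 119 and 169 CPM in PS-MP and 126.5, 127.6 and 111.2 CPM in control, and their part in the Dock6 levels was not tested.

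Dock8, a Cdc42 exchange factor needed for the migration of lymphocytes and dendritic cells, split the PS-MP libraries. It had 232, 1863 and 215 counts in PS-MP, against 895, 916 and 1493 in control, which is 2.82, 21.1 and 2.51 CPM in PS-MP and 12.3, 15 and 14.1 CPM in control. PS-MP replicates 1 and 3 lay below every control library and PS-MP replicate 2 above all of them. The means, 8.81 ± 10.7 CPM in PS-MP and 13.8 ± 1.38 CPM in control (SD, n = 3 each), therefore hide libraries on either side. The log2 fold change was -0.65 (SE 0.81), -2.37 when PS-MP replicate 2 was left out and -0.22 when PS-MP replicate 3 was. Lymphocyte markers summed to 10.2, 29.3 and 15 CPM in PS-MP and 13.4, 27.6 and 10.8 CPM in control, so replicate 2 was the highest of each diet for both Dock8 and the marker sum. Their part in the Dock8 levels was not tested. The genes beside Dock8 gave 240, 419 and 236 counts for Cbwd1 in PS-MP, against 215, 263 and 374 in control, and 156, 142 and 290 counts for Kank1 in PS-MP, against 96, 217 and 4 in control.

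Dock1, Dock5 and Dock4 act on Rac. Dock1, which with ELMO drives engulfment of dead cells, was the steadiest of the 8 genes, with 9.14, 9.25 and 8.89 CPM in PS-MP, against 8.70, 9.72 and 9.55 CPM in control. Its libraries overlapped, and its log2 fold change was -0.04 (SE 0.14). Dock5, a close relative of Dock1 known from osteoclasts, had 17.9, 16.6 and 13.9 CPM in PS-MP, against 15.3, 13.4 and 12.7 CPM in control. These overlapped as well, with a log2 fold change of 0.22 (SE 0.16). With library size as the only scaling the median log2 fold change of all genes moved up by 0.214, and the values became 0.18 for Dock1 and 0.43 for Dock5.

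Dock4, a Rac exchange factor also tied to Wnt signalling, was high in a single library. Its counts were 195, 117 and 1323 in PS-MP, against 92, 122 and 198 in control, or 2.37, 1.32 and 15.5 CPM in PS-MP and 1.27, 2.0 and 1.87 CPM in control. PS-MP replicate 3 stood above all others, PS-MP replicate 2 lay within the control range and PS-MP replicate 1 just above it. The log2 fold change of 1.90 (SE 0.90) was 0.09 without PS-MP replicate 3. Its neighbours Zfp277 and Immp2l had 767 and 2047 counts in that library, the lowest PS-MP counts of each.

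Counts of members are set beside all genes, and nothing is read from them, since the genes were chosen on this contrast. At an adjusted p under 0.05, edgeR called 0 of the 8 genes, where it called 0.0113% of all genes tested. Dock9 alone was under an unadjusted p of 0.05 with edgeR, against 5.38% of all genes. DESeq2 called 1 of the 8, Dock9, against 0.800% of all genes, and limma-voom called 0, against 0.00566%. Dock9 was also the only 1 of the 8 whose diets had ranges of CPM that did not overlap, which held for 11.2% of all genes. Every PS-MP library was higher for 1 of the 8, against 6.24% of all genes, and lower for 0 of the 8, against 4.99%. The 8 genes had a median log2 fold change of 0.33, with 6 above zero, where the median of all genes was 0.02 and 52.8% were above zero; with library size alone 7 of the 8 were above zero.

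Dock2 and Dock3 lay close between diets. Dock2, the Rac exchange factor of blood cells, had 3.16, 4.77 and 2.51 CPM in PS-MP, against 2.96, 4.01 and 2.65 CPM in control (0.12 on the log2 scale, SE 0.31, edgeR adjusted p = 1). Dock3, a neuronal Rac exchange factor, had 0.255, 0.272 and 0.269 CPM in PS-MP, against 0.330, 0.263 and 0.217 CPM in control (-0.02, SE 0.35, edgeR adjusted p = 1). Both overlapped. Some exon bases of Dock2 and Dock3 also belong to other annotated genes, most of them on the opposite strand, and the strand setting of the counts is not given.

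Per length, the order of 10 DOCK genes, the 8 with Dock2 and Dock3, showed where the Dock9 level sits. On the scale of CPM per kb of exon, Dock9 averaged 0.574 ± 0.207 in PS-MP and 0.0253 ± 0.0105 in control (SD, n = 3 each), which is place 5 of 10 in PS-MP and place 9 of 10 in control. In control only Dock3 was lower, at 0.0187 ± 0.00394, and the ranges of Dock9 and Dock3 overlapped. In PS-MP Dock9 overlapped both Dock8, above it at 0.875 ± 1.06, and Dock2, below it at 0.304 ± 0.102. At the top, control had Dock8 at 1.37 ± 0.137, then Dock5 at 1.14 ± 0.111 and Dock1 at 0.999 ± 0.0584. Dock8 and Dock5 overlapped there, and Dock5 and Dock1 did not. In PS-MP the order was Dock5 at 1.33 ± 0.168, Dock6 at 1.0 ± 0.421, Dock1 at 0.975 ± 0.0202 and Dock8 at 0.875 ± 1.06, and each overlapped the next.

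**Figure D3:**
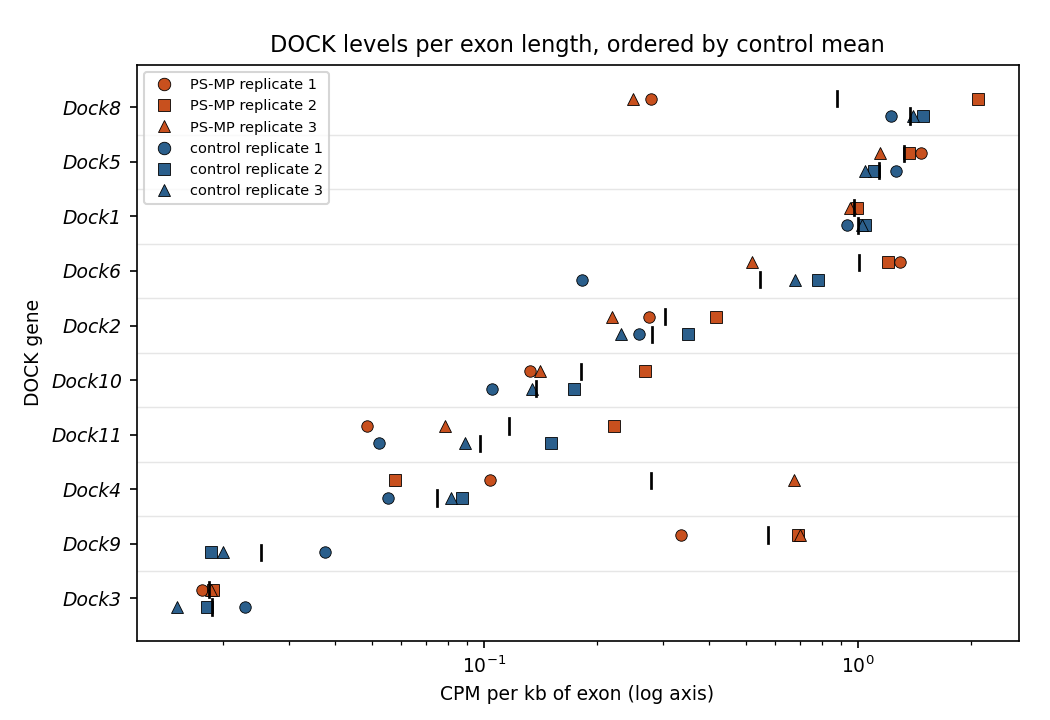
CPM per kb of exon on a log axis for 10 DOCK genes, ordered by the control mean, with PS-MP libraries in orange above control libraries in blue and a bar at each mean. Dock9 averages 0.574 in PS-MP and 0.0253 in control, where it lies next to Dock3 at 0.0187.

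The summed level of the 10 genes differed less between diets than Dock9 did. It was 54.3, 80.02 and 60.7 CPM in PS-MP and 45.4, 56.1 and 50.6 CPM in control. Without Dock9 it was 49.9, 70.9 and 51.4 CPM in PS-MP and 44.9, 55.9 and 50.3 CPM in control. The diets overlapped with Dock9 and without it. Dock9 made up 8.18%, 11.4% and 15.2% of the sum in PS-MP and 1.09%, 0.439% and 0.523% in control.

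Spread within a diet was measured as the highest over the lowest CPM of the 3 libraries, taking the wider diet. It was 11.7-fold for Dock4 and 8.40-fold for Dock8, each in PS-MP, 4.56-fold for Dock11 in PS-MP and 4.28-fold for Dock6 in control. Dock9 and Dock10 had 2.08-fold and 2.03-fold, Dock5 1.29-fold and Dock1 1.12-fold. Over 4-fold lay 4 of the 10 DOCK genes, 8.63% of the 12471 genes with a mean of at least 1 CPM, and 15.6% of all genes tested. Dock11 and Dock3 averaged under 1 CPM and are not among the 12471 genes. Among the genes of at least 1 CPM, 2.73% had a wider spread than Dock4, 3.73% a wider spread than Dock8, and 98% a wider spread than Dock1.

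**Figure D4:**
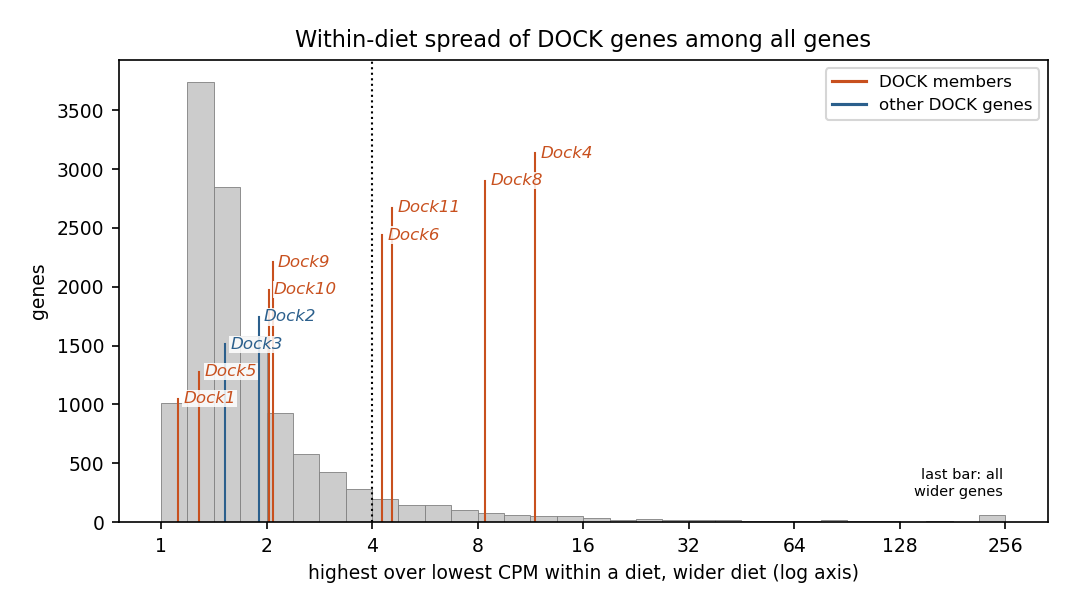
Histogram of the highest over the lowest CPM within a diet (wider diet, log axis) for the 12471 genes with a mean of at least 1 CPM, with vertical lines for the 8 DOCK members in orange and Dock2 and Dock3 in blue and a dotted line at 4-fold; line heights only separate the names. Dock4, Dock8, Dock11 and Dock6 lie beyond 4-fold, at 11.7, 8.40, 4.56 and 4.28. Dock11 and Dock3 averaged under 1 CPM, so they have lines but are not counted in the bars.

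Around the DOCK factors, 96 genes of the Rac and Cdc42 pathway in 6 lists were read from the fit over all genes, and 92 passed the filter. With edgeR, 0 of the 92 rose and 0 fell at an adjusted p under 0.05, against 0.0113% of all genes. An unadjusted edgeR p under 0.05 was found for 2 of the 92, against 5.38% of all genes. DESeq2 called 0, against 0.800% of all genes, and limma-voom called 0, against 0.00566%. Their median log2 fold change was 0.04, with 57.6% above zero; with library size alone the median was 0.25, beside the shift of 0.214 in all genes. The CPM ranges of the diets were apart for 8 of the 92, or 8.7%, against 11.2% of all genes.

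Among the GTPases, Cdc42, the target of Dock9, had 96.2 to 110.1 CPM in PS-MP, against 111 to 125 CPM in control. Every PS-MP library was below every control library by a small margin, at -0.21 on the log2 scale (SE 0.11), which did not pass with edgeR (adjusted p = 0.955). Rac1 had 80.4, 113 and 112 CPM in PS-MP, against 129, 106 and 81.2 CPM in control, which overlapped (-0.04, SE 0.22, edgeR adjusted p = 1). Rac2, the form of blood cells, had a log2 fold change of 0.40 (SE 0.26) and Rhoq, a relative of Cdc42, 0.12 (SE 0.17). Of the 7 GTPase genes tested, 5 were above zero, with a median of 0.08.

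Partners that hold or recruit DOCK proteins had a median log2 fold change of 0.08, with 7 of 11 above zero. The scaffold gene Elmo2 had 0.17 (SE 0.17) and Elmo1, its relative in blood cells, -0.17 (SE 0.39). Lrch1, which binds Dock8, had 0.19 (SE 0.24), and Rhog, a GTPase upstream of ELMO, had -0.12 (SE 0.19).

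The Dbl family holds the other exchange factors of Rac and Cdc42, and 18 of its 26 genes were above zero, with a median of 0.25. Prex1, a Rac exchange factor that answers to phosphoinositides and G proteins, had 15.4, 13.9 and 10.7 CPM in PS-MP, against 9.46, 9.56 and 9.37 CPM in control. It was higher in 3 of 3 PS-MP libraries, by 0.49 on the log2 scale (SE 0.18), and did not pass over all genes with edgeR (adjusted p = 0.9). Mcf2l, also of this family, was low, at 0.352, 0.227 and 0.152 CPM in PS-MP and 0.110, 0.0493 and 0.132 CPM in control (1.28 on the log2 scale, SE 0.56, edgeR adjusted p = 0.923). On the lower side the smallest unadjusted p belonged to Itsn2 at -0.25 (SE 0.48) and Sos1 at -0.08 (SE 0.21).

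GAPs and GDIs, which switch Rac and Cdc42 off or hold them in the cytosol, had 10 of 17 genes above zero and a median of 0.06. Arhgap24 had 5.96, 4.62 and 6.56 CPM in PS-MP, against 8.25, 7.69 and 6.66 CPM in control (-0.40, SE 0.20, edgeR adjusted p = 0.931). Racgap1, a gene of dividing cells, had -1.09 (SE 0.66) at under 1 CPM, Srgap2 0.16 (SE 0.14) and Arhgap1 0.21 (SE 0.19).

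Effectors, which carry the signal of Rac and Cdc42 to actin, had 12 of 29 genes above zero and a median of -0.07. Baiap2, an adaptor between Cdc42 or Rac and actin regulators, had 10.9, 5.91 and 12.8 CPM in PS-MP, against 20.8, 15.1 and 18.2 CPM in control. It was lower in 3 of 3 PS-MP libraries, with a log2 fold change of -0.87 (SE 0.30), and did not pass with edgeR (adjusted p = 0.87). The kinase gene Cdc42bpa had -0.45 (SE 0.33), the formin gene Fmnl2 0.19 (SE 0.20) and Cdc42ep2 0.19 (SE 0.24).

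**Figure D5:**
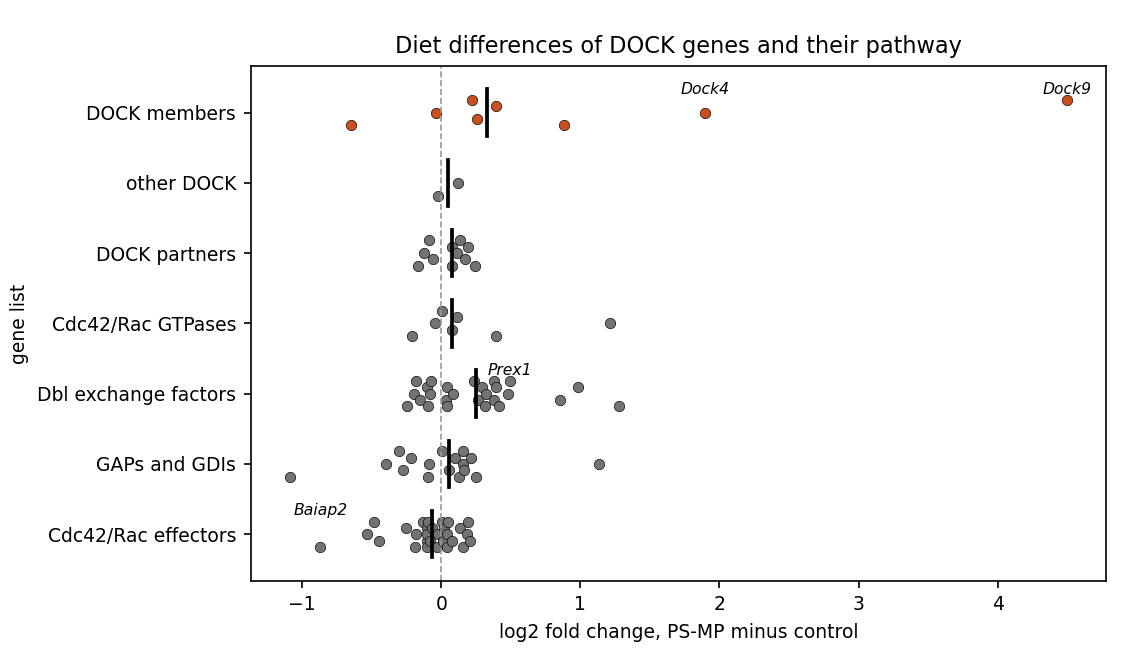
Log2 fold change, PS-MP minus control, of each gene tested in 7 lists, with the 8 DOCK members in orange, the 6 pathway lists in grey and a bar at the median of each list. Dock9 at 4.50 lies beyond every pathway gene, whose extremes are -1.09 and 1.28.

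Over the 6 libraries, the named genes most like Dock9 were Mafg, Rhot1, Abcg1, Tstd1 and Gpsm1, with Pearson r of log2 CPM between 0.984 and 0.995. Mafg, a small Maf transcription factor, had 20.3, 23.7 and 24.1 CPM in PS-MP, against 13.7, 11.1 and 10.8 CPM in control. Abcg1, a sterol transporter, had 4.66, 5.0 and 5.28 CPM in PS-MP, against 3.94, 3.70 and 3.56 CPM in control. Rhot1, a mitochondrial GTPase gene, had 21.9, 22.7 and 22.4 CPM in PS-MP, against 20.3, 19.5 and 20.0 CPM in control, so a high r goes with a small difference in level. Across all genes tested, 257 had an r beyond 0.9 in size. These 5 genes were picked by this r, and the 6 libraries fall into 2 diets that Dock9 separates, so the r is a description only.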

How the data were processed

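Mouse liver RNA was sequenced in 6 libraries, 3 of PS-MP chow and 3 of control chow. Per the labels' protocols, column-purified total RNA went through poly(A) selection into a directional library kit. Per the submitters' processing notes, bcl2fastq and the build GRCm39 were used. No aligner, counting program, annotation or strand setting is named in the sources used here. The authors deposited whole-number read counts per gene symbol, 56674 rows in each file; the 67 symbols listed more than once, Tiam2 among them, were summed.

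Genes were filtered with filterByExpr, scaled by TMM, and compared by the quasi-likelihood F test of edgeR 4.0.16 in R 4.3.3, diet being the only term, with Benjamini-Hochberg adjustment over 17662 genes. Alternatives were other scalings and filters, DESeq2 1.42.0, limma-voom (limma 3.58.1), a replicate block and leaving out each library. The fit was tested on simulated data. Log2 CPM used a prior count of 2. Levels per kb used exon lengths of GENCODE M21. The 8 genes, the pathway and marker lists and the tests were chosen with earlier results of these data known.

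Named genes were the 8 members, Dock2, Dock3, Cdc42, Rac1, in each list the 2 genes with the smallest p in each direction, the 5 genes most like Dock9 (predicted genes left out) and the neighbours of Dock9. Others, such as neighbours of other members, were chosen after their values were seen. Some results are not reported here.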

Additional observations from a re-analysis of the deposited data

How the results depend on the processing

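With edgeR, 2 genes passed in all, both higher in PS-MP. DESeq2 called 174 genes (59 higher, 115 lower) and limma-voom 1, while leaving out a library gave 0 to 4 and the cause was not tested. The other scalings and filters also gave 2. Of the pathway genes, 0 passed under any of the 14 alternatives. The log2 fold change of Dock9 stayed between 4.32 and 4.88 under all of them. Dock10, Dock11 and Dock1 changed sign under some, as given beside their values, and the other members kept their sign. Whether the replicate numbers pair the libraries is not stated in the labels and is not settled by these values. Deviations of same-numbered libraries from their diet means correlated at 0.108, 0.139 and -0.128. Of the 6 libraries, 4 correlated best with their own number. These 4 were replicates 1 and 2 of each diet, so each such pair is counted from both sides. With the replicate block 0 genes passed. Low counts limit the precision of Dock3, with 16 to 24 counts a library, of Dock11, and of Dock9 in control, where 15 to 36 counts stand behind the fold change.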

Other observations

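Uneven levels within a diet were also found among other genes of the Rac and Cdc42 pathway, which were singled out after their values were seen. Of the 77 pathway genes with a mean of at least 1 CPM, 8 spanned over 4-fold within a diet, or 10.4%, against 8.63% of all genes at that level. Vav2, a Rac exchange factor, had 0.741, 18 and 1.06 CPM in PS-MP, against 1.49, 20.7 and 0.501 CPM in control, so replicate 2 was high in each diet. Fgd4, a Cdc42 exchange factor, had 5.35, 13.9 and 9.05 CPM in PS-MP, against 0.744, 11.4 and 2.24 CPM in control. Rhou, a relative of Cdc42, had 56.0, 44.0 and 61.7 CPM in PS-MP, against 78.4, 67.5 and 7.51 CPM in control, where replicate 3 was the low library.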
